A study of Rattus norvegicus with 25 samples.

Results

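The comparison asked what 3 thymus supplements had in common in the injured rat hippocampus. It set the mean of 3 supplement groups against the injured group that received vehicle. It contrasted 20 of the 25 libraries of the series, 15 with a supplement and 5 with vehicle, and weighted the 3 supplement groups equally. All 20 came from male Sprague-Dawley rats aged 6 to 7 weeks that had a controlled cortical impact (CCI), in which a piston strikes the exposed cortex above the hippocampus. Vehicle-CCI was given no supplement, TD-CCI was given the supplement labelled thymus, TCF-CCI thymus cytosolic factor and TNF-CCI thymus nuclear factor. The letters TNF stand here for that supplement, not for the inflammatory cytokine. The 5 Vehicle-sham libraries, from rats without the impact, served as a reference for the size of the injury difference. Each group had 5 libraries, and the series title names functional recovery after brain injury as the question. The sources used here give no dose, no time after the impact and no side of the brain. Nor do they state that the libraries came from separate animals, so a p-value measures only the spread among the 5 libraries of each group, which may be technical.

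After a cortical impact, glia and neurons of the tissue around and below the contusion respond. Microglia, the resident phagocytes, turn to a phagocytic state in which they express the lysosomal membrane protein Cd68 and the secreted protein osteopontin, encoded by Spp1. Astrocytes enlarge and fill with the intermediate filament Gfap. Neurons can lose synaptic transcripts, and those of activity-dependent genes such as Bdnf, a growth factor that sustains synapses, can change. Perivascular and meningeal fibroblasts can lay down collagen at the margin of a lesion. In bulk tissue, fewer cells of a type and less RNA per cell cannot be told apart.

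No gene separated the supplements from Vehicle-CCI at an adjusted p under 0.05. The edgeR quasi-likelihood test called 0 of 21064 genes, which is 0%, and the smallest adjusted p was 0.999943. At an unadjusted p under 0.05 there were 399 genes (1.89%), 149 of them higher with the supplements (0.707%) and 250 lower (1.19%). DESeq2 and limma voom also called 0 genes, with 474 and 757 genes at an unadjusted p under 0.05. The 399 were 632 without Vehicle-CCI 1, 256 without Vehicle-CCI 3, 643 without Vehicle-CCI 4 and 698 without Vehicle-sham 2. The log2 fold change lay above 0 for 9787 genes (46.5%), with a median of -0.01. Over the 16915 genes at a mean of at least 1 CPM (counts per 1e6, after TMM scaling of library size), the median half-width of the 95% confidence interval was 0.36 on the log2 scale, a factor of 1.28. That interval is not adjusted for the number of genes, so a call in the typical gene needed a shared difference larger than this factor. Larger differences also went uncalled, such as 0.87 on the log2 scale for Col1a1 (unadjusted edgeR p 0.000417). Each supplement by itself also gave 0 calls against Vehicle-CCI with edgeR, with 368 (1.75%), 304 (1.44%) and 729 (3.46%) genes at an unadjusted p under 0.05 for TD-CCI, TCF-CCI and TNF-CCI. The 368 of TD-CCI were 615 without Vehicle-sham 2 and 712 without Vehicle-CCI 4, the 304 of TCF-CCI were 600 without Vehicle-sham 2 and 477 without Vehicle-CCI 5, and the 729 of TNF-CCI were 1541 without TNF-CCI 2. Vehicle-CCI over sham gave 0 calls as well (0%), with 2669 genes (12.7%) at that p, 1457 without Vehicle-CCI 2 and 4055 without Vehicle-CCI 4. All of these comparisons share the Vehicle-CCI libraries.

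The genes that mark the injury response spread more widely within Vehicle-CCI than between it and the supplements. Cd68 was at 17.1, 11.2, 2.21, 1.7 and 3.64 CPM in Vehicle-CCI libraries 1 to 5. With the supplements it ran from 0.864 to 14.1 CPM with a median of 6.22, so that all but the lowest of the 15 libraries fell inside the Vehicle-CCI range. Its log2 fold change was -0.19 ± 0.42 (SE), with an interval from -1.07 to 0.68 and an unadjusted edgeR p of 0.653. Vehicle-CCI exceeded sham in this gene by 2.43 on the log2 scale. The sign of the Cd68 value turned positive without Vehicle-CCI 1 (0.42), the library of highest Cd68. Spp1, which like Cd68 stands for phagocytic microglia, was at 53.9, 36.6, 19, 1.43 and 18.6 CPM in Vehicle-CCI and from 0.996 to 101 CPM with the supplements. Its pooled difference was -0.13 on the log2 scale with an interval from -1.30 to 1.04. Spp1 was chosen after its values were seen.

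The astrocyte filament gene Gfap was at 3343, 3166, 1003, 1531 and 2276 CPM in Vehicle-CCI. It was at 1992, 3262, 2425, 3550 and 2616 CPM in TD-CCI, at 2621, 1191, 2333, 2360 and 788 CPM in TCF-CCI and at 7938, 1970, 2780, 2532 and 5789 CPM in TNF-CCI. All 3 supplement groups overlapped Vehicle-CCI, and the 2 highest libraries of the 20 were both TNF-CCI. The pooled log2 fold change of Gfap was 0.30 ± 0.32 (SE), with an unadjusted edgeR p of 0.359. By group it was 0.29 for TD-CCI, -0.28 for TCF-CCI and 0.89 for TNF-CCI, so the pooled mean joins values of both signs. Bdnf was at 23.3, 18.3, 31.1, 36.3 and 27 CPM in Vehicle-CCI and from 16.9 to 67.2 CPM with the supplements, where the highest value was TNF-CCI 1. Its pooled difference was 0.03 ± 0.22 (SE) on the log2 scale, against -0.86 for Vehicle-CCI over sham. Without TNF-CCI 1 the Bdnf difference was -0.10.

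**Figure D1:**
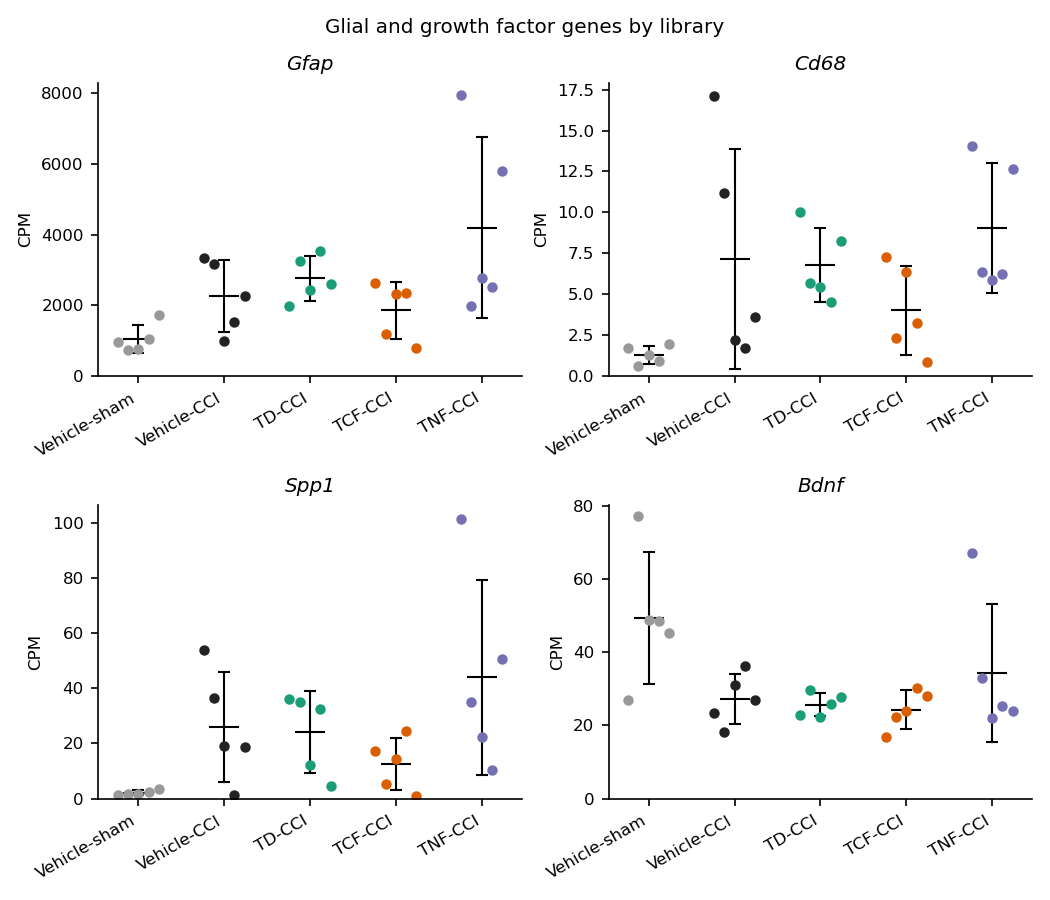
CPM of Gfap, Cd68, Spp1 and Bdnf in the 5 groups; each point is 1 library, and the bar and whiskers are the group mean and SD (5 libraries). The supplement groups overlap Vehicle-CCI in all 4 genes, and Vehicle-CCI itself spans 1.7 to 17.1 CPM for Cd68.

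The glial and immune gene groups also held no gene called in the pooled comparison, and the medians of the microglial activation and reactive astrocyte lists were below 0 in TCF-CCI and above 0 in TNF-CCI. Of 22 genes of microglial activation, 8 lay above 0 and none passed an unadjusted p of 0.05 in the pooled comparison. The median log2 difference of these 22 genes was -0.05 for the mean of the supplements, and by group it was -0.05 for TD-CCI, -0.44 for TCF-CCI and 0.28 for TNF-CCI. The same genes had a median of 1.04 in Vehicle-CCI over sham. The 21 genes of reactive astrocytes had a pooled median of 0.03, made of 0.07, -0.32 and 0.37 in that order, and 12 lay above 0. The spread between libraries was wide. The mean level of the microglial list, relative to the Vehicle-CCI mean, ran from -0.96 to 0.87 within Vehicle-CCI and from -1.30 (TCF-CCI 5) to 1.02 (TNF-CCI 1) with the supplements.

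Among the members of smallest p in these groups, Cd63, a lysosomal tetraspanin, averaged 95.4 ± 22.2 CPM with the supplements (SD, n = 15) and 108 ± 20.3 CPM in Vehicle-CCI (SD, n = 5). Apoe, the lipid carrier made by astrocytes and activated microglia, averaged 2593 ± 844 and 2132 ± 550 CPM. Tmem119, a marker of resting microglia, ran from 4.37 to 8.04 CPM in Vehicle-CCI and from 2.91 to 14.5 CPM with the supplements, and 8 of the 15 exceeded the Vehicle-CCI maximum. Its log2 fold change was 0.51 with an unadjusted edgeR p of 0.0731. Aif1, the microglial actin-binding protein known as Iba1, went the other way at -0.27. The list of resting microglia as a whole had 3 of 10 genes above 0 and a median of -0.10.

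Genes of antigen presentation and innate immunity likewise differed by less than the spread between libraries. The 10 genes of MHC class II presentation had a pooled median of -0.10, the 24 genes of the interferon response and MHC class I -0.06 and the 19 cytokine and chemokine genes -0.11. In each of these 3 lists, as in complement, TCF-CCI had the lowest median and TNF-CCI the highest. B2m, the light chain of MHC class I, was at 1259, 1484, 729, 707 and 872 CPM in Vehicle-CCI and from 456 to 1381 CPM with the supplements. RT1-DMb, which loads peptide onto MHC class II, differed by -0.34 and RT1-A1, a class I heavy chain, by 0.32. Reads of RT1 genes may be split among near-identical copies, so those values are uncertain. Of 20 complement genes 13 lay above 0 with a median of 0.15, but the members of smallest p had opposite signs. C3, the central component, was at 0.49, and C1qc, a chain of the initiating complex, was at -0.29.

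Genes of lymphocytes were few and low. Of 16 markers 8 passed the filter on low counts, and their median was -0.11. Lck, the T cell kinase, averaged 0.701 CPM with the supplements and 0.601 CPM in Vehicle-CCI. The list of thymosins and other genes linked to the thymus had 7 tested genes, with 1 above 0 and a median of -0.08. The gene above 0 was Psmb11, which had the smallest p of the list, at 0.27 with an unadjusted edgeR p of 0.123. Tmsb4x, which encodes the actin-binding thymosin beta 4, was at 5257, 5363, 6539, 4454 and 3368 CPM in Vehicle-CCI. With the supplements it ran from 2114 to 8510 CPM with a median of 3001, and 9 of the 15 libraries lay below the Vehicle-CCI minimum. Its log2 fold change was -0.45 ± 0.38 (SE) with an unadjusted edgeR p of 0.244, and the highest of the 20 libraries was TNF-CCI 2.

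**Figure D2:**
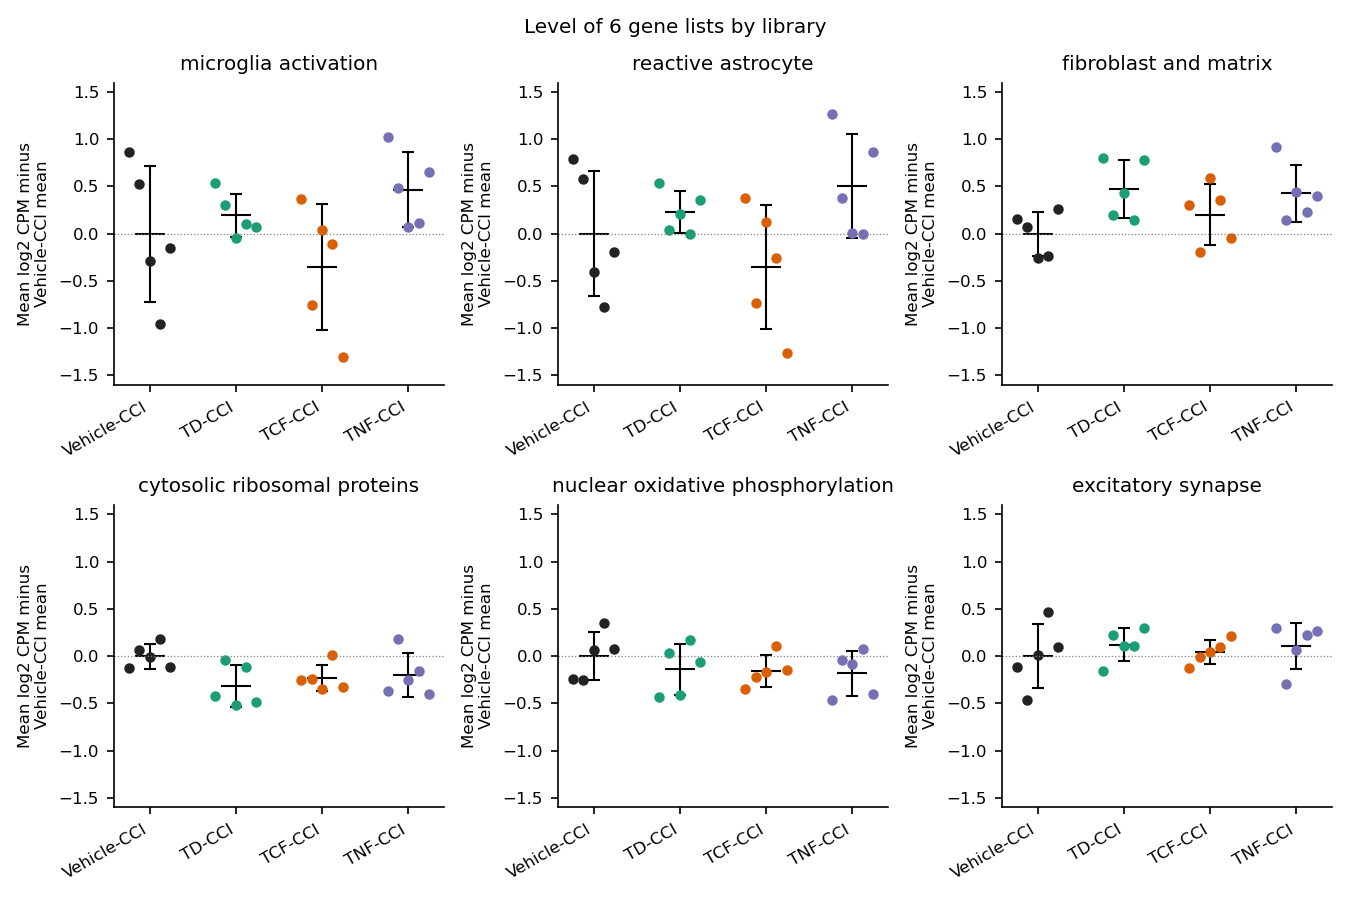
Mean log2 CPM of the genes of 6 lists in each CCI library, minus the mean of the 5 Vehicle-CCI libraries (dotted line at 0); points are libraries, and the bar and whiskers are the group mean and SD (5 libraries). Microglial and astrocyte lists span over 1 log2 unit within Vehicle-CCI, while the ribosomal list runs from -0.13 to 0.18 there and from -0.52 to 0.18 with the supplements.

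Genes of fibroblasts and extracellular matrix held the smallest p among genes higher with the supplements. Col1a1 (chromosome 10, 79883622 to 79900625, mRatBN7.2), which encodes the alpha 1 chain of type I collagen, was at 5.62, 7.48, 3.32, 4.8 and 5.03 CPM in Vehicle-CCI. It was at 15.6, 6.96, 10.3, 11.1 and 12.8 CPM in TD-CCI, at 8.31, 4.98, 11.4, 9.54 and 4.62 CPM in TCF-CCI, and at 13.2, 8.87, 10.5, 7.01 and 10.2 CPM in TNF-CCI. Of the 15 supplement libraries, 11 lay above the highest Vehicle-CCI library and the others within the Vehicle-CCI range. The log2 fold change was 0.87 ± 0.21 (SE), with an interval from 0.43 to 1.31, an unadjusted edgeR p of 0.000417 and an adjusted p of 0.999943. It ran from 0.74 to 1.03 when each library was left out or another setting was used. The difference from sham in Vehicle-CCI was 0.31.

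Col1a2 (chromosome 4, 32563938 to 32598868), which encodes the alpha 2 chain of the same collagen, was at 9.07, 8.98, 5.82, 6.91 and 7.16 CPM in Vehicle-CCI. It was at 27.1, 11.2, 18.3, 20.0 and 18.0 CPM in TD-CCI, at 18.0, 6.28, 18.3, 11.1 and 4.12 CPM in TCF-CCI, and at 15.7, 11.2, 12.3, 6.53 and 20.4 CPM in TNF-CCI. The groups overlapped, with 12 of 15 supplement libraries above the Vehicle-CCI maximum and TCF-CCI 5 below its minimum. The log2 fold change was 0.91 ± 0.30 (SE), with an unadjusted edgeR p of 0.0051. Of the 20 genes of the fibroblast and matrix list, 18 lay above 0, the median was 0.28, and 6 had an unadjusted p under 0.05, all higher. The median over all tested genes was -0.01, and 149 of them (0.707%) were higher at that p. By group the median of the list was 0.48 in TD-CCI, 0.19 in TCF-CCI and 0.41 in TNF-CCI, and none of its genes passed the adjusted threshold.

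The other 4 of those 6 genes were named after their values were seen. Col3a1, the type III collagen of vessel walls, had a log2 fold change of 0.92, and it was highest by far in TD-CCI 1 at 57.4 CPM. Fn1, the adhesive matrix protein fibronectin, was at 17.4, 19.6, 8.85, 13.3 and 21.7 CPM in Vehicle-CCI and from 12.0 to 37.1 CPM with the supplements, a difference of 0.51. Col6a3, a chain of type VI collagen, was at 1.19, with TNF-CCI 1 at 89.9 CPM against 3.24 to 34.5 CPM in the other supplement libraries. Lox, the enzyme that crosslinks collagen, was at 1.88, and TNF-CCI 1 alone stood at 157 CPM where the other supplement libraries lay between 1.43 and 6.93 CPM. Without TNF-CCI 1 the log2 fold change of Lox was 0.54. Its 5 Vehicle-CCI libraries lay between 1.3 and 2.15 CPM.

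A further pair of genes of cell adhesion to matrix was among the 10 of smallest p. Itga1, the collagen-binding integrin alpha 1, was at 7.33, 7.37, 5.72, 5.57 and 6.49 CPM in Vehicle-CCI and from 6.18 to 14.3 CPM with the supplements, where 13 of 15 libraries exceeded the Vehicle-CCI maximum. Its difference was 0.53 ± 0.17 (SE) on the log2 scale, with an unadjusted edgeR p of 0.00381. Nid1, the basement membrane protein nidogen 1, averaged 13.5 ± 3.13 and 9.42 ± 2.08 CPM, a difference of 0.51. Markers of other vascular cells were nearer to 0. The 17 endothelial genes had a median of 0.13 with 12 above 0, and the 11 genes of pericytes and smooth muscle had a median of 0.09 with 8 above 0. Kdr, the main receptor for vascular endothelial growth factor, was at 0.44 and the endothelial cadherin Cdh5 at 0.49, with unadjusted edgeR p of 0.0562 and 0.0818. The part of these vascular genes in the matrix values was not tested.

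**Figure D3:**
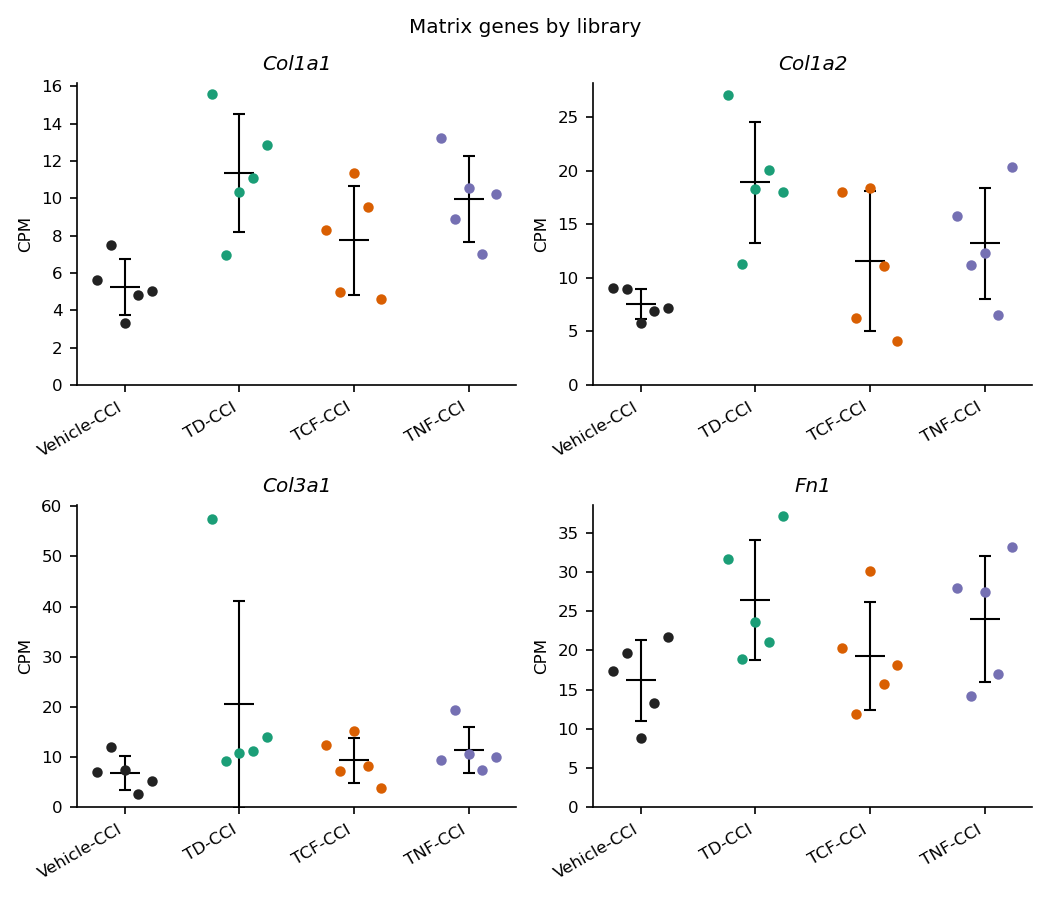
CPM of Col1a1, Col1a2, Col3a1 and Fn1 in the 20 CCI libraries; points are libraries, and the bar and whiskers are the group mean and SD (5 libraries). Most supplement libraries lie above Vehicle-CCI for Col1a1 (11 of 15 above its maximum) and Col1a2 (12 of 15), and TD-CCI 1 stands alone in Col3a1 at 57.4 CPM.

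The remaining genes of smallest p on the higher side had varied roles. Dll4, the Notch ligand of sprouting endothelium, was at 0.53, 0.978, 0.506, 0.434 and 0.64 CPM in Vehicle-CCI and from 0.794 to 1.93 CPM with the supplements. Its log2 fold change was 0.93 ± 0.27 (SE) with an unadjusted edgeR p of 0.00203, and Vehicle-CCI lay below sham by 1.10. Mob1b, an activator of the Hippo pathway kinases, differed by 0.60, Chml, a Rab escort protein, by 0.69, and the zinc finger gene Zfp704 by 0.52. In Mob1b and Zfp704 all 15 supplement libraries lay above the Vehicle-CCI mean, and 9 exceeded its maximum in each. The uncharacterised genes LOC120100677 and LOC108351754 differed by 0.87 and 1.33.

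On the lower side, Ifitm6 was the only gene of 21064 (0.00475%) whose 15 supplement libraries all lay below the 5 Vehicle-CCI libraries, and no gene had all 15 above (0%). Ifitm6 (chromosome 1, 196117033 to 196118382) belongs to a family of interferon-induced membrane proteins. It was at 1.44, 1.58, 1.49, 1.6 and 1.6 CPM in Vehicle-CCI. With the supplements it ran from 0.731 to 1.36 CPM with a median of 1.08, close to the sham mean of 0.947 ± 0.355 CPM. The sham libraries ran from 0.512 to 1.47 CPM, and the highest, Vehicle-sham 4, lay inside the Vehicle-CCI range. The log2 fold change was -0.54 ± 0.19 (SE) with an unadjusted edgeR p of 0.00709. By group it was -0.67 for TD-CCI, -0.54 for TCF-CCI and -0.42 for TNF-CCI. The gene is expressed at a low level, so counting error enters these values. Vehicle-CCI had an SD of 0.0733 CPM, against 0.243 in TD-CCI, 0.213 in TCF-CCI and 0.176 in TNF-CCI. The lack of overlap thus depends also on a narrow Vehicle-CCI range. Whether 1 such gene among 21064 is more than would arise without a supplement effect was not tested.

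Other genes of small p were lower with all 3 supplements by group mean. Mrps26, a protein of the small subunit of the mitochondrial ribosome, was at 34.6, 48.0, 43.0, 43.1 and 41.5 CPM in Vehicle-CCI and from 29.7 to 40.5 CPM with the supplements. There 11 of 15 libraries lay below the Vehicle-CCI minimum, and the log2 fold change was -0.32 ± 0.085 (SE) with an unadjusted edgeR p of 0.000929. C1qtnf9, a secreted relative of complement C1q and adiponectin, was at 4.45, 3.6, 3.1, 3.44 and 2.71 CPM in Vehicle-CCI and from 0.666 to 3.25 CPM with the supplements, a difference of -0.93. The uncharacterised gene LOC120102992 was at 99.2, 133, 96.7, 91.0 and 104 CPM against 40.8 to 95.7 CPM, with 13 of 15 below the Vehicle-CCI minimum. Its difference was -0.65 on the log2 scale, and those of LOC108353207 and LOC689130 were -0.74 and -0.49. LOC120099832 had the smallest unadjusted p of all (0.000147, edgeR) at -1.83, but Vehicle-CCI 2 was at 17.3 CPM where the other Vehicle-CCI libraries lay between 0.834 and 2.36. Without Vehicle-CCI 2 its difference was -0.34.

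The largest pooled differences belonged to choroid plexus, the epithelium that secretes cerebrospinal fluid in the ventricle beside the hippocampus. Ttr (chromosome 18, 11941791 to 11951008), the thyroxine carrier that this epithelium makes in bulk, was at 12.5, 7.77, 3757, 50.6 and 4.86 CPM in Vehicle-CCI. It was at 54.3, 6.55, 7.34, 7.55 and 12.3 CPM in TD-CCI, at 8.71, 11.8, 9.75, 476 and 6.71 CPM in TCF-CCI, and at 10.9, 22.2, 33.4, 3.35 and 71.2 CPM in TNF-CCI. Vehicle-CCI 3 and TCF-CCI 4 stood apart, and the other 18 libraries overlapped. The log2 fold change of Ttr was -4.37 ± 1.1 (SE) with an unadjusted edgeR p of 0.000508, and it was 0.97 without Vehicle-CCI 3.

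The same 2 libraries were highest in Kcnj13, a potassium channel of this epithelium, in Cltrn, an amino acid transporter partner, and in Slco1a5, an organic anion carrier. Their log2 fold changes were -3.45, -4.44 and -4.14, and without Vehicle-CCI 3 they were 1.04, 1.16 and 1.21. Without TCF-CCI 4 edgeR called 3 genes, which were Kcnj13, Cltrn and Slco1a5 (smallest adjusted p 0.0163), each highest in Vehicle-CCI 3. Of 12 choroid plexus genes 1 lay above 0, the median was -1.02, and 5 were lower at an unadjusted p under 0.05, against 1.19% of all tested genes. Besides Ttr and Kcnj13 these were Cldn2, a tight junction protein, Prlr, the prolactin receptor, and Enpp2, the enzyme that makes lysophosphatidic acid, named after their values were seen. Prlr was at 52.5 CPM in Vehicle-CCI 3 and 32.4 CPM in TCF-CCI 4, against 0.464 to 3.82 CPM in the other 18 libraries. Without Vehicle-CCI 3 the differences of Cldn2, Prlr and Enpp2 were 0.83, 0.59 and -0.04.

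**Figure D4:**
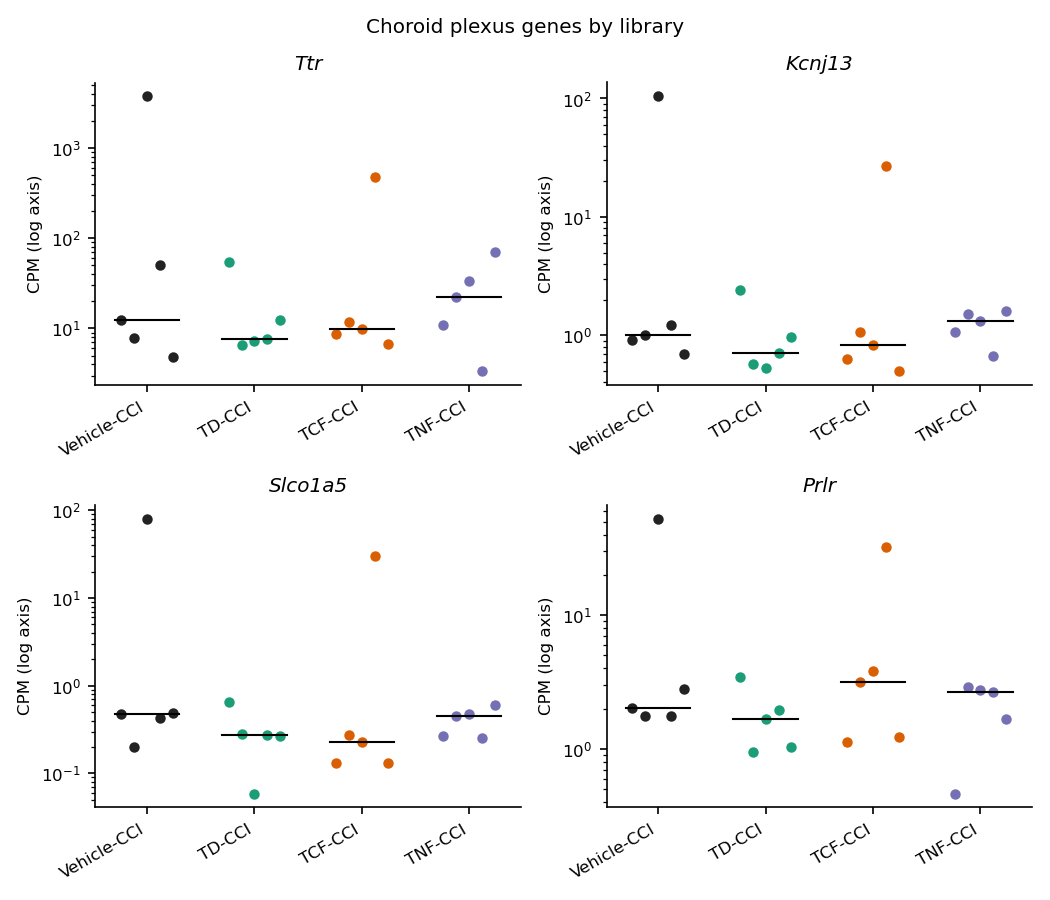
CPM on a log axis of the choroid plexus genes Ttr, Kcnj13, Slco1a5 and Prlr in the 20 CCI libraries; points are libraries and the line is the group median. Vehicle-CCI 3 and TCF-CCI 4 lie far above the rest, at 3757 and 476 CPM for Ttr.

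Genes of neurons and their synapses differed by less than the spread between libraries. The 21 genes of the excitatory synapse had a pooled median of 0.02 with 13 above 0, against -0.47 in Vehicle-CCI over sham. The 18 genes of synaptic vesicles had a median of 0.12 with 14 above 0, and the 18 genes of inhibitory synapses and interneurons had 0.16 with 13 above 0. None of these passed an unadjusted p of 0.05. Grin2a, a subunit of the NMDA receptor, was at 28.9, 9.95, 18.1, 43.2 and 19.8 CPM in Vehicle-CCI and from 19.6 to 65.8 CPM with the supplements, a difference of 0.55 ± 0.33 (SE). Shank1, a scaffold below the receptors, differed by 0.29 and Bsn, a scaffold of the release site, by 0.29. Markers of CA1, of CA2 and CA3 and of dentate granule neurons had medians of 0.04, -0.02 and -0.05. The 10 genes used to check for hippocampal tissue had a median of 0.02, and their mean level ran from -0.34 to 0.51 in Vehicle-CCI and from -0.23 to 0.52 with the supplements.

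Genes of neurogenesis and growth factors also gave no call. Sox11, a transcription factor of newborn neurons, was the 1 gene of 12 in its list at an unadjusted p under 0.05. It was at 3.59, 1.73, 3.23, 2.87 and 3.32 CPM in Vehicle-CCI and from 2.88 to 30.8 CPM with the supplements, with TNF-CCI 1 highest and a log2 fold change of 0.91. The mean of TD-CCI and TCF-CCI alone gave 0.51. Dcx, the microtubule protein of migrating neuroblasts, differed by 0.27. Fgf2, a growth factor of astrocytes and neural stem cells, averaged 2.74 ± 0.734 CPM with the supplements and 1.88 ± 0.814 CPM in Vehicle-CCI, a difference of 0.52 with an unadjusted edgeR p of 0.0656.

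Several housekeeping and glial groups leaned one way without any member passing. Of 22 cytosolic ribosomal protein genes, 1 lay above 0 and the median was -0.25, and of 24 nuclear genes of oxidative phosphorylation, 4 lay above 0 and the median was -0.12. Over all tested genes 46.5% lay above 0. Rpl11, of the large ribosomal subunit, was at 484, 649, 482, 568 and 520 CPM in Vehicle-CCI and from 334 to 578 CPM with the supplements, with 12 of 15 below the Vehicle-CCI minimum. Its log2 fold change was -0.31 with an unadjusted edgeR p of 0.0817, and that of Ndufb3, a subunit of complex I, was -0.31. The list of ribosomal proteins was also uneven in sham, where its mean level ran from -0.65 to 0.65.

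Of 14 myelin genes, 1 lay above 0 and the median was -0.19. Mobp, a structural protein of compact myelin, was at 3425, 2612, 3731, 6829 and 2910 CPM in Vehicle-CCI, where Vehicle-CCI 4 stood apart, and from 1842 to 5327 CPM with the supplements. Ugt8, which makes the myelin lipid galactosylceramide, differed by -0.35. Of 14 genes of resting astrocytes 13 lay above 0 with a median of 0.12, among them Slc1a2, the main glutamate transporter, at 0.53 and Slc4a4, a bicarbonate transporter, at 0.27. In Slc1a2 all 15 supplement libraries exceeded the Vehicle-CCI mean of 138 ± 78.4 CPM, while Vehicle-CCI itself ran from 41.3 to 226 CPM. Reactive astrocyte genes with the smallest p, Steap4, a metalloreductase, and Serpina3n, a protease inhibitor, stood at -0.44 and 0.90. Serpina3n was low, with a Vehicle-CCI mean of 0.294 CPM, and TNF-CCI 5 was at 7.03 CPM. By group Serpina3n was at 0.36 for TD-CCI, -0.29 for TCF-CCI and 2.64 for TNF-CCI.

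No gene of the stress and metabolic lists had an unadjusted p under 0.05. The 20 genes of cholesterol synthesis and uptake had a median of 0.00, with Hmgcs1, which opens the pathway, at -0.16 and Idi1, an isomerase of it, at -0.33. The 19 genes of cell death and p53 had a median of -0.08, with the cell cycle inhibitor Cdkn1a at -0.30. The 19 genes of heat shock and the unfolded protein response had a median of -0.09 with 3 above 0. The 12 glucocorticoid targets had a median of -0.15 with 2 above 0, and the kinase Sgk1 was at -0.33. Cfap126, a gene of motile cilia, was the only member of 14 ependymal genes at an unadjusted p under 0.05, with a difference of -0.52. The 7 red cell genes all lay below 0 with a median of -0.59, but their mean level ran from -1.07 to 0.95 within Vehicle-CCI. Over the 40 lists, 13 of 570 tested genes had an unadjusted p under 0.05, and in 36 lists no gene did. Over all tested genes the share at that p was 1.89%.

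Differences among the 3 supplements were tested in contrasts that hold no Vehicle-CCI library. With 5 libraries per group, a lack of calls cannot show that the supplements form 1 condition. edgeR called 0 of 21064 genes (0%) as different among them, with a smallest adjusted p of 0.437 and 632 genes (3%) at an unadjusted p under 0.05, which were 989 without Vehicle-sham 2. limma voom with sample quality weights called 7 genes, which were Kcnq1, LOC102552995, RGD1564941, Trnr, Trnh, Trns2 and Trnl2, and edgeR called 1 gene without TD-CCI 5. F3, the tissue factor that starts clotting, was named for its small p among the supplements. It was at 25.9, 25.3, 24.4, 22 and 27.9 CPM in TNF-CCI and at 18.1, 16.8, 14.6, 16.6 and 12.1 CPM in TD-CCI. These ranges did not overlap, and how many of all genes part these groups in the same way was not counted. In TCF-CCI F3 was at 15.1, 19.1, 22.5, 18.1 and 22.6 CPM, and its edgeR p adjusted over all genes was 0.774. In the pooled comparison F3 averaged out to 0.11. Of the other genes of smallest p, Asb15 and Pomc were each far highest in 1 library. Asb15, a substrate adaptor of ubiquitin ligases, was at 40.9 CPM in TNF-CCI 2 and between 0.151 and 0.546 CPM in the other supplement libraries, and the hormone precursor gene Pomc was at 78.2 CPM in TD-CCI 1.

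Measures of library quality did not separate the pooled groups by test. Totals of the 20 libraries ran from 28.7 to 44.9 M counts (M, 1e6), with means of 33.9 ± 4.47 M for the supplements (SD, n = 15) and 32.6 ± 0.815 M for Vehicle-CCI (SD, n = 5). A two-sided exact permutation test of the difference gave p = 0.543. Reads of mt-Rnr1 and mt-Rnr2, the ribosomal RNAs of mitochondria, took 6.34 ± 2.39% and 7.89 ± 1.46% of all counts on average, with an exact permutation p of 0.192 (0.332 adjusted over 3 measures). This share was lowest in TNF-CCI, where 4 libraries lay between 2.95 and 4.17% and TNF-CCI 2 was at 10.9%. In Vehicle-sham the share reached 25.6 and 17.3% in libraries 2 and 3. Library totals by group were highest in TNF-CCI, at 35.2 to 44.9 M counts. They were 31.7 to 33.6 M in Vehicle-CCI, 29.2 to 38.0 M in TD-CCI and 28.7 to 33.4 M in TCF-CCI.

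The widest variation among the 20 libraries moved with a number in their titles. The titles carry a number in front of the letter B, from 6 to 90, whose meaning the labels do not give. Its group means were 39.6 in Vehicle-CCI, 41.6 in TD-CCI, 40.8 in TCF-CCI and 54 in TNF-CCI. The first principal component of log2 CPM, with 21.8% of the variance, rose with it over the 20 libraries (Pearson r 0.687, permutation p 0.00104; Spearman rho 0.693, permutation p 0.001). Of 2 components tested, the second gave r 0.258 with a permutation p of 0.273, and the Pearson p of the first was 0.00208 when adjusted over both. Without the 2 libraries of most extreme number, r was 0.798. A linear fit of expression on the number within the 4 CCI groups (edgeR, 20 libraries, added after the data were seen) called 1886 of 20834 genes (9.05%), 982 higher with the number (4.71%) and 904 lower (4.34%). The count was 914 without Vehicle-CCI 1, 886 without Vehicle-CCI 5, 501 without TD-CCI 1, 1243 without TD-CCI 4, 961 without TCF-CCI 1, 873 without TCF-CCI 5, 908 without TNF-CCI 2, 983 without TNF-CCI 3, 426 without TNF-CCI 4 and 2920 without TNF-CCI 5. It was 23 once the mitochondrial rRNA share entered the fit. With the number as a covariate the pooled comparison gave 0 calls with edgeR and 446 genes at an unadjusted p under 0.05.

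**Figure D5:**
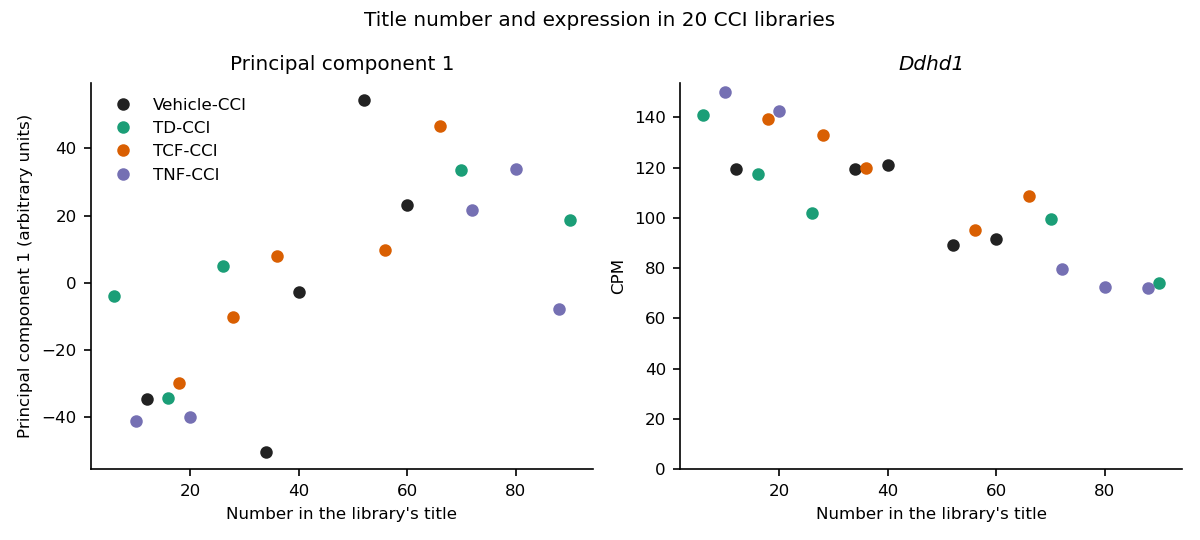
Principal component 1 of log2 CPM (left) and CPM of Ddhd1 (right) against the number in the library's title for the 20 CCI libraries, coloured by group. Component 1 rises with the number (r 0.687), and Ddhd1 lies between 102 and 150 CPM in the 10 libraries numbered up to 36 and between 72.1 and 121 CPM in the 10 numbered from 40.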

How the data were processed

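The deposited table held the authors' read counts per gene, whole numbers that were not normalised, for 25 libraries of rat hippocampus. Per the labels, they were polyA libraries made with the TECAN Universal Plus kit. Of tools, the submitters' processing notes list featureCounts, STAR, Salmon and DESeq2, with neither version nor role, and mRatBN7.2 as build. Whether counting used strand is not given in the sources used here, which makes values of overlapping, antisense and near-identical genes uncertain. Positions are those of the deposited table. Of 34322 genes, 7 with empty cells were left out. The authors' deposited tables against sham were not used.

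Computed here with edgeR 4.0.16 in R 4.3.3 were TMM factors, the filterByExpr filter by group (21064 genes) and robust quasi-likelihood F tests, in 1 fit of all 25 libraries with a mean per group. The pooled contrast was the mean of the 3 supplement group means minus Vehicle-CCI. P-values were adjusted by Benjamini-Hochberg over all tested genes at 0.05. Intervals are 95%. CPM use TMM scaling, and list levels use log2 CPM with a prior count of 2. Alternatives used DESeq2 1.42.0, limma 3.58.1, other filters, covariates, subsets and the replicate block. Chi-square per degree of freedom between 2 libraries of a CCI group was 24.9 to 303, where counting error alone gives 1; totals were 28.7 to 44.9 M counts in these libraries. The code was tested on simulated data.

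Earlier results of these data were known when the comparison, the 40 gene lists and the naming rule were chosen. The rule took Gfap, Cd68 and Bdnf, the 10 genes of smallest p in each direction at a mean of at least 1 CPM, genes without overlap, the 2 members of smallest p in each list and the 5 of smallest p among supplements; the text names part of these, and 1 gene is not reported here. Any other gene is marked in the text as picked with its values in view.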

Additional observations from a re-analysis of the deposited data

Results flagged for a closer look

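In each CCI group, the highest or lowest of the 5 CPM values was checked for a gap to its neighbour of over 0.71 of the group's range. Over 69 genes and 4 groups, 42 of 276 sets of 5 libraries (15.2%) held such a library. The cut-off gives about 1 in 20 for normally distributed values, and the CPM were not put on a log scale for this check. The named genes include some chosen for small p, and genes of 1 tissue are not independent. No explanation of these values was tested.

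In Vehicle-CCI 3 and TCF-CCI 4 these were genes of choroid plexus, 7 in each. Vehicle-CCI 3 stood apart in Ttr (3757 CPM, the other 4 up to 50.6), Kcnj13 (104), Cltrn (57.1), Slco1a5 (80.2), Cldn2 (22.7), Prlr (52.5) and Enpp2 (602). TCF-CCI 4 stood apart in the same 7 genes, with 476 CPM for Ttr, 27 for Kcnj13, 16.3 for Cltrn, 30.3 for Slco1a5, 9.63 for Cldn2, 32.4 for Prlr and 305 for Enpp2. TD-CCI 1 was high in Ttr (54.3 CPM), Kcnj13 (2.42) and Cldn2 (1.21), and also in Col3a1 (57.4 CPM, the other 4 between 9.34 and 13.9) and in Pomc (78.2 CPM).

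TNF-CCI 1 was the highest of its group in Lox (157 CPM, the other 4 between 1.49 and 2.97), Col6a3 (89.9), Sox11 (30.8) and Bdnf (67.2). TNF-CCI 2 was the highest in Asb15 (40.9 CPM), Tmsb4x (8510), mt-Rnr1 (26220), mt-Rnr2 (81590), Idi1 (72.5) and Col3a1 (19.4). TNF-CCI 5 was the highest in Serpina3n (7.03 CPM).

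Among the other Vehicle-CCI libraries, Vehicle-CCI 2 was highest in LOC120099832 (17.3 CPM), LOC120100677 (3.83) and Serpina3n (0.805), Vehicle-CCI 1 in Pomc (5.95) and Vehicle-CCI 4 in Mobp (6829), while Vehicle-CCI 5 was lowest in F3 (14.5). Among the other supplement libraries, TD-CCI 5 was highest in Col6a3 (34.5 CPM) and Tmem119 (14.5), TD-CCI 4 in Slc4a4 (420) and TCF-CCI 3 in Dll4 (1.48) and Sox11 (4.62), while TD-CCI 2 was lowest in Mob1b (12.7).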

How the results depend on the processing

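The pooled comparison gave 0 calls in every alternative fit except without TCF-CCI 4, so it ran from 0 to 3 when each library was left out. The 399 genes at an unadjusted p under 0.05 ranged from 256 without Vehicle-CCI 3 to 986 with no filter on low counts, and were 785 with only the 20 CCI libraries, 825 with the supplements as 1 group, 835 without 2 sham libraries and 965 with the 20 libraries and the title number. Over 30 pairs of libraries that share a replicate number from 1 to 5, r ran from -0.32 to 0.441, with a median of 0.133 and 17 pairs over 0.1. Of 20 libraries, 9 correlated best with a library of their own replicate number. Pairs of unlike number were not summarised as a baseline, and whether these numbers pair the libraries was not tested. Within each group, the replicate numbers follow the title numbers sorted as text. The CCI libraries of replicate 1 carry title numbers of 10, 12, 16 and 18. The part of the title number in these correlations was not tested. With a replicate block the pooled comparison gave 0 calls and 615 genes at an unadjusted p under 0.05, and Vehicle-CCI over sham 1 call. That injury comparison gave 0 calls in the edgeR fit of all libraries (2669 genes, 12.7%, at an unadjusted p under 0.05), 70 with the title number as covariate, 247 with DESeq2, and 0 to 368 when each library was left out, the highest without Vehicle-CCI 4. TNF-CCI over Vehicle-CCI gave 1 call with DESeq2. Differences among the supplements gave 7 calls with limma voom and 0 to 1 when each library was left out.

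Of the named genes these changed sign in the pooled comparison, and causes were not tested. None of them was called in the main fit, and Kcnj13, Cltrn and Slco1a5 were called without TCF-CCI 4. Cd68 was at 0.0027 with the replicate block, 0.13 without TCF-CCI in the mean and 0.21 with limma voom, and from -0.44 to 0.42 over left-out libraries. Spp1 was at 0.0064 with the title number as covariate, 0.067 with the 20 libraries and that covariate, 0.047 with the supplements as 1 group and 0.33 without TCF-CCI in the mean, and from -0.43 to 0.32 over left-out libraries. Bdnf was at -0.12 without TNF-CCI in the mean and -0.069 with limma voom (-0.10 to 0.16 over left-out libraries), and Asb15 at -0.51 and -0.27 (-0.39 to 1.40). F3 was at -0.068 without TNF-CCI in the mean, Pomc at -0.31 without TD-CCI in the mean (-0.0015 to 1.18 over left-out libraries), and mt-Rnr2 at 0.037 with the mitochondrial rRNA share as covariate. Over left-out libraries Ttr ran from -5.53 to 0.97, Kcnj13 from -4.44 to 1.04, Cltrn from -5.93 to 1.16, Slco1a5 from -5.80 to 1.21, Cldn2 from -3.41 to 0.83, Prlr from -2.55 to 0.59, Steap4 from -0.67 to 0.063 and Hmgcs1 from -0.32 to 0.058.

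The 1886 genes that followed the title number were 23 with the mitochondrial rRNA share as covariate, 3915 with limma voom and 426 to 2920 over left-out libraries; there Gfap ran from -0.079 to 0.013 per 10 of the number. Counting error weighs most in genes near 1 CPM, such as Ifitm6, and its share there was not measured.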

Other observations

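Within the 4 CCI groups, some genes of presynaptic terminals, energy supply and sterol synthesis rose with the number in the library titles (edgeR, adjusted p under 0.05, a fit added after the data were seen whose 1886 calls became 23 once the mitochondrial rRNA share entered it). The genes below were chosen after their values were seen. Called higher were 10 of 18 synaptic vesicle genes, 12 of 24 nuclear oxidative phosphorylation genes, 7 of 20 cholesterol genes and 7 of 18 genes of inhibitory synapses and interneurons, with none called lower in these lists. Over all genes tested 4.71% were called higher and 4.34% lower, and the lists themselves were not tested. Snap25, a protein of the vesicle fusion machinery, had a median of 577 CPM in the 10 libraries numbered up to 36 and 876 CPM in the 10 numbered from 40. Sv2a, a vesicle glycoprotein, had medians of 106 and 137 CPM, and Atp5f1b, the catalytic subunit of ATP synthase, 427 and 700 CPM. Fdft1, the squalene synthase, had medians of 37.2 and 52.8 CPM, and Gad1, which makes GABA, 68.1 and 87.7 CPM. The ranges of the low and high numbers overlapped in each of these 5 genes.

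Ddhd1, a phospholipase, and Wrn, a DNA helicase, fell with the number, by 0.11 per 10 on the log2 scale in each, with edgeR adjusted p of 0.00165 and 0.00255. Of the myeloid receptor genes, Clec5a fell from a median of 7.61 to 2.25 CPM, with an edgeR adjusted p of 0.0139. Cd68 had medians of 6.80 and 4.08 CPM and did not pass (edgeR adjusted p 0.263), nor did Gfap (0.565) or Col1a1 (0.665). Most genes of the injury lists lay below 0 all the same, 18 of 22 for microglial activation (1 called lower), 19 of 21 for reactive astrocytes (1), 19 of 20 for complement (2), 10 of 10 for MHC class II (1), 17 of 19 for cytokines (3) and 18 of 19 for cell death (4).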
